A study of Mus musculus with 8 samples.

Results

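The genes described here are 9 genes that mark the naive and memory states of CD8 T cells: Tcf7, Lef1, Id3, Bach2, Foxo1, Klf2, Bcl6, Il7r and S1pr1. They were listed by name and not by a rule on their values, though earlier results of these data were known. Each matched 1 row of a table of 35072 genes. The 8 libraries came from wildtype mouse CD8 T cells taken from spleen and lymph nodes. All cells were naive at the start and were activated for 18 h through CD3 and CD28 in the presence of interleukin-12, a cytokine that drives the type 1 effector programme. They were then kept for 24 h with PBS as the vehicle or with 2 mM formate, a one-carbon metabolite, with 4 libraries in each group. The labels give no age or sex, and do not say how many animals were used or whether cells were pooled, so p values measure only the spread between these libraries, which may be technical. By its title the series concerns exercise, the gut flora and immunity to tumours, and the comparison asks whether formate moves these genes in newly activated cells.

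TCF1 (the product of Tcf7) and LEF1 are related HMG-box factors that keep naive and memory T cells able to self-renew. FOXO1 works in quiescent cells, where it maintains expression of the KLF2 gene and of the interleukin-7 receptor chain IL7R; KLF2 in turn maintains S1PR1, the receptor by which lymphocytes follow sphingosine 1-phosphate out of lymph nodes. ID3, BACH2 and BCL6 restrain effector differentiation: ID3 blocks E proteins, BACH2 limits the access of AP-1 factors to DNA, and BCL6 opposes the repressor BLIMP1, which Prdm1 encodes. T cell receptor and interleukin-12 signals lower most of these genes, and the PBS libraries are themselves of strongly activated cells: the granzyme gene Gzmb, chosen after its values were seen, stood at 4901 ± 710 CPM (estimated counts scaled to library size, with a correction for library composition; SD, n = 4) in them.

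Library totals ran from 29361986 to 41393093 estimated counts. The titles carry codes that form 2 runs, 1 to 8 and 10 to 14, and 4 neighbouring pairs (1 and 2, 7 and 8, 10 and 11, 13 and 14), each with 1 PBS and 1 formate library. Codes 10, 13, 1 and 7 are PBS libraries 1 to 4, and codes 11, 14, 2 and 8 are formate libraries 1 to 4. The planned comparison takes no account of the pairs and is called the unpaired fit; the paired fit adds them as a replicate block and is given beside it where it changes a call. The labelled cell type was borne out by Cd8a at 550 ± 58.04 CPM in PBS and 550 ± 68.6 CPM with formate, whereas Cd4 stood at 4.74 ± 1.30 and 4.596 ± 2.02 CPM. The sum of 8 CD4 T cell markers, Cd4 included, was far higher than Cd4 alone. It ran from 184 to 279 CPM in PBS and from 182 to 259 CPM with formate. Summed over 10 B cell markers the level was 18.8 to 32.02 CPM in PBS and 20.8 to 36.1 CPM with formate. Over 14 myeloid and dendritic markers it was 2.13 to 4.53 and 2.39 to 4.50 CPM, and over 8 NK and innate lymphoid markers 16.7 to 38.5 and 20.1 to 43.4 CPM. Over 10 endothelial and stromal markers it was 17.7 to 24.4 and 17.7 to 23.4 CPM, and of these Cdh5 and Emcn were at 0 counts in every library. None of the 6 marker sums passed a test between groups (smallest exact two-sided permutation p = 0.171, for the CD8 T cell markers, and 0.771 after adjustment over the 6). With 70 assignments the smallest p this permutation test can give is 0.0286 before adjustment, and it takes no account of the pairs. A single sum could hardly pass after adjustment, so the test cannot show that the mix of cells was alike. The sums of CD8 and CD4 T cell markers were lower and those of B cell and of NK and innate lymphoid markers higher with formate in 4 of 4 pairs. Mitochondrially encoded genes held a larger share of the counts with formate in 4 of 4 pairs (means of 0.462% and 0.702%), and the part of these shifts in the results below was not tested.

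The 2 genes that passed the paired test, Lef1 and Foxo1, are shown with the 250 bases before their first start in RefSeq (GRCm38.p6). They are shown because both passed, and whether they share a regulator was not tested. For Lef1 a start inside the gene is shown too, because its window held the core searched for; counts per gene do not separate transcripts of the 2 starts. Capitals mark the letters CTTTGA or their reverse complement TCAAAG, the core that TCF1 and LEF1 recognise.
Lef1 first start (chr3:131110047-131110296, plus strand): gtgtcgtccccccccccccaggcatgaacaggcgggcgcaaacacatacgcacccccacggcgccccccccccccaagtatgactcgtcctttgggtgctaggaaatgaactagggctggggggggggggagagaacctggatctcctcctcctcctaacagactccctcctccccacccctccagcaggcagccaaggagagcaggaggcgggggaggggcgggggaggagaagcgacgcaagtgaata
Lef1 internal start (chr3:131156044-131156293, plus strand): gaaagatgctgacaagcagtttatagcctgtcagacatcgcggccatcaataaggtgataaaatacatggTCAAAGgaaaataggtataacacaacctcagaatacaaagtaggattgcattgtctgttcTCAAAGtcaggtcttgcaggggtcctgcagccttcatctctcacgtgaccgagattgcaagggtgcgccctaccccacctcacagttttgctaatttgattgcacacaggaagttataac
Foxo1 start (chr3:52268087-52268336, plus strand): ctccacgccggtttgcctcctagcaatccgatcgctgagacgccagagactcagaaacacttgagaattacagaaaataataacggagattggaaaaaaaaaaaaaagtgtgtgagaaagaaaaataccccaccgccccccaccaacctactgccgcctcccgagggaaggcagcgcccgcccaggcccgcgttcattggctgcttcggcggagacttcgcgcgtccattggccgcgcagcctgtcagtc
The window of the internal Lef1 start held the core 2 times, at 180 and 120 bases before the start, and the windows of the first Lef1 start and of Foxo1 held it 0 times. Of Lef1 windows 1 to 4, some of them not printed, only the last, that of the internal start, held the core. Among 32851 RefSeq windows of this length 13.8% held it on either strand. A FOXO core, GTAAACA or TGTTTAC, was searched for in the same way and occurs in 3.17% of such windows and in 3.65% of the windows extended by 50 bases past the start. It was in 0 of the 13 windows of 250 bases of 8 of these genes, the 3 printed ones included. With the 50 bases past the start it was in 1, just downstream of a second start of Tcf7:
Tcf7 second start, 29 bases: cctttataggaGTAAACAgacccccgcca
The TCF1 and LEF1 core was also in 1 window each of Bach2 and Bcl6. No match of one core overlapped a match of the other. S1pr1 had no entry in the promoter table. These matches describe the letters only.

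Lef1 (ENSMUSG00000027985, chromosome 3, 131110471 to 131224356, plus strand, GRCm38) was the gene of this group with the clearest difference. Its level was 130, 123, 123 and 124 CPM in PBS libraries 1 to 4, and 114, 96.1, 105 and 108 CPM in formate libraries 1 to 4. Every formate library lay below every PBS library, a separation seen for 1 of these 9 genes, and for 4.29% of the 13299 genes tested (1.85% with formate lower). The means were 125 ± 3.61 and 106 ± 7.38 CPM (SD, n = 4). In the unpaired fit the log2 change was -0.24 (SE 0.08, edgeR adjusted p = 0.998), and Lef1 did not pass. In the paired fit it fell by 15.6% (log2 change -0.24, SE 0.05, edgeR adjusted p = 0.00475), with log2 ratios of -0.23, -0.20, -0.20 and -0.35 in the pairs of codes 1, 7, 10 and 13. Without the pair of codes 1 and 2 the paired call was lost by a narrow margin (adjusted p = 0.05001) at a log2 change of -0.24, and with a correction for the GC content of transcripts it was kept (-0.23, adjusted p = 0.00840). In bulk RNA, fewer cells that express a gene and less RNA per cell cannot be told apart.

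Tcf7 (ENSMUSG00000000782, chromosome 11, 52252371 to 52283014, minus strand), the paralog of Lef1, moved less. It stood at 190, 198, 250 and 220 CPM in PBS libraries 1 to 4 and at 182, 179, 230 and 209 CPM in formate libraries 1 to 4. The group ranges overlap widely, yet the formate library was the lower one in each of the 4 pairs, by 0.07 to 0.14 on the log2 scale. Neither fit called it (log2 change -0.10 in each, edgeR adjusted p = 0.998 unpaired and 0.134 paired), and the 95% interval of the paired change ran from -0.19 to -0.01. Genes on the opposite strand overlap Tcf7 (A630014C17Rik), Lef1 (Gm43352), Foxo1 (Gm20402), Bach2 (Bach2os) and Bcl6 (Gm37419), and since the strand setting of the counting is not given in the sources used here, reads of such partners cannot be told apart from reads of these genes. On the same strand, genes overlap Tcf7 (Gm26551), Lef1 (Gm42449), Foxo1 (Gm38034) and Bach2 (Gm24371 and Bach2it1). A strand setting would not separate the reads of these.

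**Figure D1:**
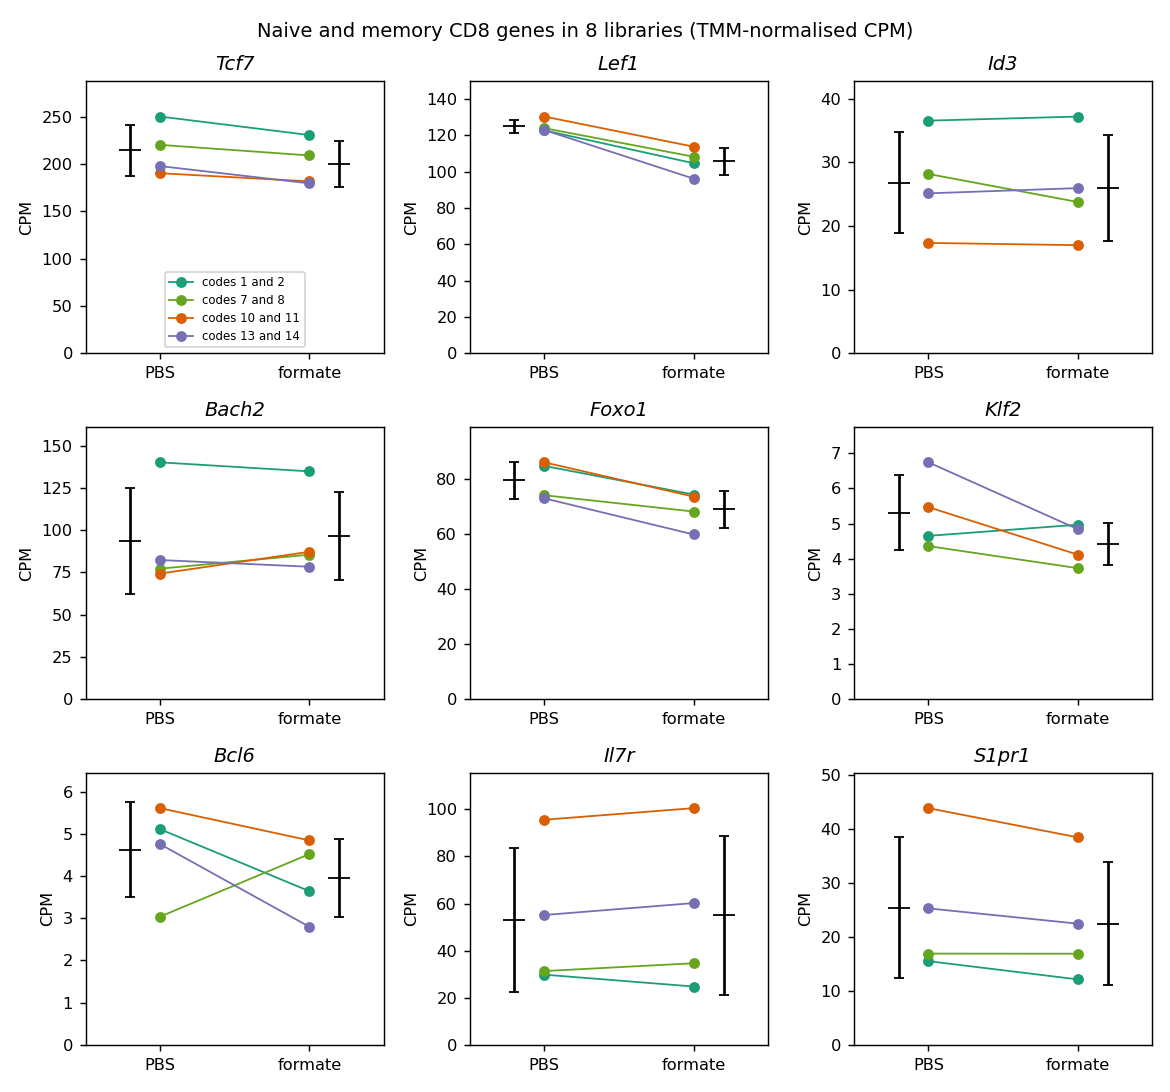
Level of each of the 9 genes in CPM (vertical axes, from 0) in PBS and formate libraries, with a line joining the 2 libraries of neighbouring title codes and bars for the mean and SD of 4 libraries beside them. Lef1, Foxo1, Tcf7 and S1pr1 are lower with formate in every pair, S1pr1 hardly so for codes 7 and 8. Il7r and S1pr1 spread widely between pairs and little within them.

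Foxo1 (ENSMUSG00000044167, chromosome 3, 52268336 to 52353221, plus strand) was at 86.0, 72.9, 84.7 and 74.1 CPM in PBS libraries 1 to 4 and at 73.6, 59.8, 74.3 and 68.1 CPM in formate libraries 1 to 4. The highest formate libraries reached into the PBS range, so the groups overlap, but each pair had the lower value with formate. The means were 79.4 ± 6.89 and 69.0 ± 6.70 CPM (SD, n = 4), with a log2 change of -0.20 in the unpaired fit (SE 0.10, edgeR adjusted p = 0.998). In the paired fit Foxo1 fell by 13.3% (log2 change -0.21, SE 0.05, edgeR adjusted p = 0.0125). That call was lost without codes 1 and 2 (adjusted p = 0.0789) or 13 and 14 (0.0709), at changes of -0.20 and -0.18, and kept with the GC correction (-0.21, adjusted p = 0.0132).

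Klf2 (ENSMUSG00000055148, chromosome 8, 72319033 to 72321656, plus strand), a FOXO1 target, was low: 113 to 278 counts per library, or 5.47, 6.74, 4.65 and 4.36 CPM in PBS libraries 1 to 4 and 4.11, 4.84, 4.97 and 3.73 CPM in formate libraries 1 to 4. The groups overlap, and 3 of 4 pairs were lower with formate. Its log2 change was as large as that of Lef1 but less certain: -0.26 in the paired fit, with a 95% interval from -0.53 to 0.02 (edgeR adjusted p = 0.206).

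Il7r (ENSMUSG00000003882, chromosome 15, 9505788 to 9530176, minus strand) varied most of the 9 between libraries and hardly with formate. Its levels were 95.6, 55.1, 29.8 and 31.3 CPM in PBS libraries 1 to 4 and 100.5, 60.2, 24.8 and 34.7 CPM in formate libraries 1 to 4. The formate library followed its PBS neighbour in each pair, with log2 ratios of -0.27, 0.14, 0.07 and 0.13 in the pairs of codes 1, 7, 10 and 13. Unpaired, the change was 0.05 with a 95% interval from -1.07 to 1.18, within which a change of 2-fold would lie. With the pairs it was 0.02, with an interval from -0.11 to 0.16 (edgeR adjusted p = 0.842).

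S1pr1 (ENSMUSG00000045092, chromosome 3, 115710433 to 115715072, minus strand) stood at 43.8, 25.2, 15.5 and 16.9 CPM in PBS libraries 1 to 4 and at 38.4, 22.4, 12.1 and 16.9 CPM in formate libraries 1 to 4. The groups overlap almost wholly, and the formate value was the lower one in 4 of 4 pairs, with log2 ratios from -0.35 for codes 1 and 2 to -0.0019 for codes 7 and 8. The paired log2 change was -0.18 (SE 0.07, 95% interval -0.32 to -0.03), which did not pass (edgeR adjusted p = 0.0939; 0.998 unpaired).

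Among the restraining factors, Bach2 (ENSMUSG00000040270, chromosome 4, 32238804 to 32586108, plus strand) was at 74.3, 82.3, 140 and 77.2 CPM in PBS libraries 1 to 4 and 87.2, 78.3, 135 and 85.5 CPM in formate libraries 1 to 4. The libraries of codes 1 and 2 were high in either group, and the other 6 lay between 74.3 and 87.2 CPM. Id3 (ENSMUSG00000007872, chromosome 4, 136143497 to 136145755, plus strand) was at 17.3, 25.1, 36.5 and 28.2 CPM in PBS and 17.0, 25.9, 37.2 and 23.8 CPM with formate. For these 2 genes the formate library was higher in 2 pairs and lower in 2, and the groups overlap. Paired changes were 0.06 for Bach2 (95% interval -0.06 to 0.18, edgeR adjusted p = 0.510) and -0.05 for Id3 (-0.19 to 0.09, 0.682).

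Bcl6 (ENSMUSG00000022508, chromosome 16, 23965052 to 23988852, minus strand) was the lowest of the 9 in CPM, with 90 to 197 counts per library. It was at 5.61, 4.75, 5.11 and 3.04 CPM in PBS libraries 1 to 4 and at 4.84, 2.80, 3.64 and 4.52 CPM in formate libraries 1 to 4. Pairs differed in direction, from -0.77 for codes 13 and 14 to 0.57 for codes 7 and 8. The paired change of -0.24 had an interval from -0.64 to 0.16 (edgeR adjusted p = 0.430), so a change of the size seen for Lef1 was not detectable for Bcl6.

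Of the 9 genes, 0 passed in the unpaired edgeR fit, where 1 gene of all those tested (0.00752%) did; 1 of the 9, Lef1, had a raw p under 0.05, as had 4.77% of all genes (1.72% with formate lower), and DESeq2 called 0 of the 9 and 0.143% of all genes. In the paired edgeR fit 2 of the 9 fell and 0 rose, where 12.9% of all genes passed (7.52% fell and 5.35% rose). The unpaired change was below 0 for 7 of the 9 and for 51.8% of all genes. Lower values with formate in 4 of 4 pairs were seen for Lef1, Foxo1, Tcf7 and S1pr1 and for 19.5% of all genes. The median log2 change of the 9 in the paired fit was -0.18 and that of all tested genes -0.003. The plot of changes with their intervals shows how much the pairs narrow the estimate for Il7r and S1pr1 and how little for Klf2 and Bcl6.

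**Figure D2:**
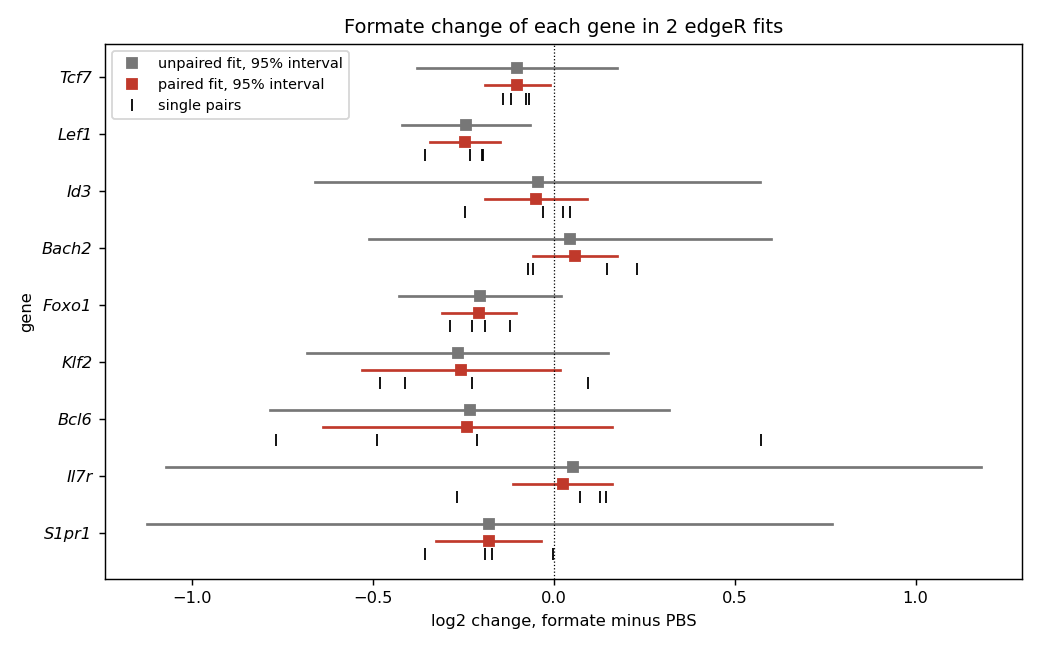
Log2 change with formate (horizontal axis) of each gene in the unpaired (grey) and paired (red) edgeR fits, as squares with 95% intervals, and in each of the 4 pairs as ticks. In the paired fit the intervals of Lef1 (-0.34 to -0.15) and Foxo1 (-0.31 to -0.10) lie below 0, as do those of Tcf7 and S1pr1, which did not pass after adjustment over all genes.

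The run of title codes went with larger differences in Il7r and S1pr1 than formate did. Mean Il7r was 77.8 CPM over the 4 libraries of codes 10 to 14 and 30.1 CPM over those of codes 1 to 8, a ratio of 2.58. Mean S1pr1 was 32.5 and 15.3 CPM, a ratio of 2.12. Tcf7 went the other way, with 187 against 227 CPM. For these 3 genes the 2 runs do not overlap, which was so for 33.9% of all tested genes, and over 2-fold differences, as in Il7r and S1pr1, were seen for 6.35% of all genes. Lef1 (116 and 115 CPM) and Foxo1 (73.1 and 75.3 CPM) were alike in the runs. Of 25 other naive and memory genes 16 were higher in codes 10 to 14 and 9 in codes 1 to 8. Among them the ratio of codes 10 to 14 over codes 1 to 8 was 1.52 for the chemokine receptor gene Ccr7, named after its values were seen, and 0.60 for Eomes. B cell markers were at 27.1 CPM in codes 10 to 14 and 20.6 CPM in codes 1 to 8, highest in the codes 10 and 11 in which Il7r and S1pr1 were highest. NK and innate lymphoid markers were at 21.27 and 38.01 CPM and CD4 T cell markers at 202 and 261 CPM, lower in codes 10 to 14. Single markers did not all follow their sums. Of 7 tested CD4 T cell markers 3 were higher in codes 10 to 14 and 4 in codes 1 to 8. Only 3 of 8 NK and innate lymphoid markers were expressed enough to be tested, and these 3 were higher in codes 1 to 8. Of 10 B cell markers 9 were higher in codes 10 to 14 and 1 in codes 1 to 8. The part of these markers in the differences between runs was not tested. The labels do not say what the runs are, and no test of their difference was made.

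**Figure D3:**
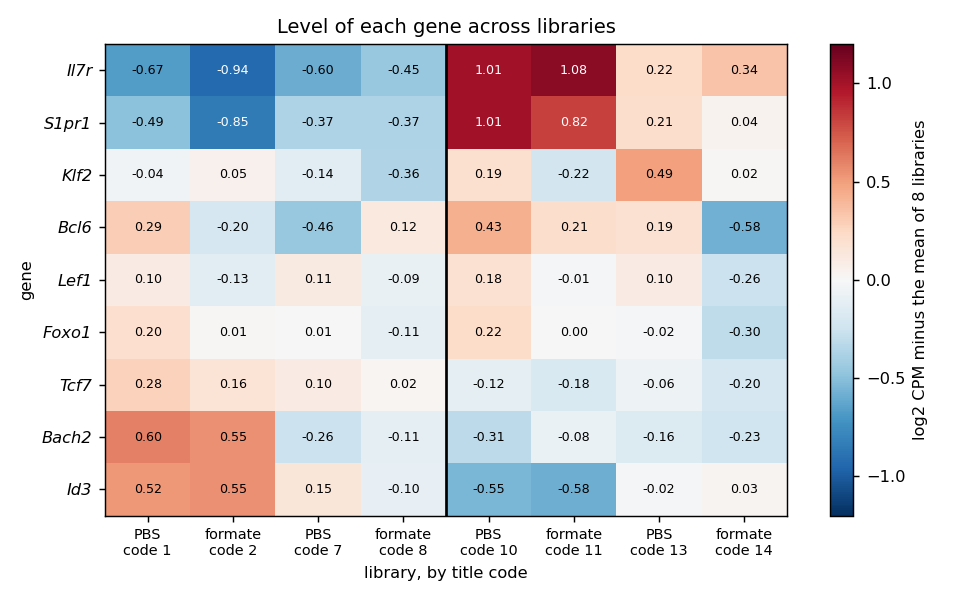
Log2 CPM of each gene (rows) in each library (columns, by title code) minus its mean over the 8 libraries, red above and blue below that mean, with a line between the 2 runs of codes. Il7r runs from -0.94 to 1.08 and changes sign at the line, as S1pr1 does, whereas Tcf7 is below its mean in all of codes 10 to 14 and Id3 is lowest in codes 10 and 11.

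A difference in the formate change between the runs was not detectable. Lef1 had -0.22 within codes 1 to 8 and -0.26 within codes 10 to 14, Foxo1 -0.16 and -0.24, Tcf7 -0.10 and -0.09, and S1pr1 -0.16 and -0.17. Klf2 (-0.05 and -0.43) and Bcl6 (-0.01 and -0.43) had the larger changes in codes 10 to 14. With 2 against 2 libraries none of the 9 passed within a run. The interaction of formate with the run, fitted in edgeR over all genes, called 0 of the 9 and 0 of 13299 genes (raw p from 0.238 to 0.969 in the 9; 0 of the 9 and 154 of all genes had a raw p under 0.05). This fit did not include the pairs, so the spread between pairs stayed in its error. Differences as large as those of Klf2 and Bcl6 could therefore be missed.

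Per length, Tcf7 was among the most abundant of the group. With the median annotated transcript as length, PBS levels per kilobase were 102 ± 12.8 CPM for Tcf7, 44.2 ± 1.28 for Lef1, 36.3 ± 10.8 for Id3, 20.9 ± 12.1 for Il7r, 9.17 ± 0.795 for Foxo1, 8.32 ± 4.27 for S1pr1, 2.87 ± 0.578 for Klf2 and 1.24 ± 0.299 for Bcl6 (SD, n = 4). In this order the ranges of 1 SD about the mean overlap for Lef1 and Id3, Id3 and Il7r, Il7r and Foxo1, and Foxo1 and S1pr1, and not for the other neighbours. Bach2 cannot be placed: its annotated transcripts have a median of 658 and a maximum of 8882 bases, which give 142 and 10.5 CPM per kilobase. The order of the other 8 is the same with the longest transcript.

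Partners and opponents of these factors were followed in lists beside them. The planned unpaired fit called 0 of the listed genes, and the counts below are from the paired edgeR fit. They rest on neighbouring codes being pairs, which no label states. Over all genes that fit called 1711, and between 337 and 1371 with 1 pair left out. Whether the calls of listed genes hold with a pair left out is not given here. The median change of all tested genes in that fit was -0.003, and the listed genes that passed had adjusted p values from 0.00249 to 0.0359. Of 25 other naive and memory genes 4 fell, 1 rose and 20 did not pass, with a median change of 0.00. Eomes, a T-box factor of memory cells, fell by 0.28 on the log2 scale, Igfbp4 by 0.29, the actinin gene Actn1 by 0.17 and the chromatin organiser gene Satb1, named after its values were seen, by 0.16, whereas the repressor gene Klf3 rose by 0.40. Ccr7 (-0.14, edgeR adjusted p = 0.0863) did not pass. Of 18 tested partners of TCF1 and LEF1 3 fell, 0 rose and 15 did not pass, with a median of -0.10. The corepressor gene Tle3 fell (106.9 ± 12.95 to 91.2 ± 11.8 CPM, log2 change -0.23), as did its relative Tle5 (-0.18). Gsk3a (-0.16), a kinase that marks beta-catenin for breakdown, fell as well. The beta-catenin gene Ctnnb1 (-0.12, 0.0810) and the Wnt target Axin2 (0.005, 0.984), chosen after their values were seen, did not pass.

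Of 14 FOXO1 kinases and relatives 0 passed, with a median of -0.05; the smallest p was that of Rictor (0.17, edgeR adjusted p = 0.0762), a subunit of the kinase complex that activates AKT. The 16 FOXO1 target genes had a median of -0.02; 14 did not pass, 0 fell and 2 rose: Cdkn1b, the cell cycle inhibitor p27 (0.22), and Klf3 (0.40; 6.36 ± 0.705 to 8.43 ± 1.36 CPM). This list holds 4 of the 9 genes themselves. In the KLF family Klf16 fell (-0.23), Klf3 rose and 7 of 9 did not pass, with a median of 0.02. Of 13 genes of interleukin-7 receptor signalling 1 fell, Stat5a (-0.15), 0 rose and 12 did not pass, with a median of -0.08.

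The list around S1PR1 had the largest share of calls, 46.2% of 13 tested genes against 12.9% of all genes: 5 fell, 1 rose and 7 did not pass, with a median of -0.04. The lists were written with earlier results of these data known, so this share is a description and not a test of the list. S1pr1 itself did not pass. Grk2, the kinase that desensitises such receptors, fell from 402 ± 74.5 to 340.5 ± 66.8 CPM (log2 change -0.24), the inhibitory G protein gene Gnai2 by 0.19 and the gut-homing integrin gene Itgb7 by 0.24. S1pr4, a further receptor of the family (-0.21), and Sphk2, a kinase that makes the ligand (-0.19), fell as well and were named after their values were seen. Cd69, whose protein holds S1PR1 inside the cell, rose from 80.0 ± 11.5 to 95.2 ± 17.5 CPM (0.25, edgeR adjusted p = 0.00643); all 6 had adjusted p values between 0.00426 and 0.0359.

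Around ID3, 1 of 5 ID and E protein genes fell, the E protein gene Tcf3 (145 ± 8.19 to 127 ± 5.08 CPM, -0.18), and 4 did not pass, with a median of -0.06. Of 10 BACH2 partners and rivals 2 fell and 2 rose: the median was -0.05, the AP-1 genes Jun (-0.31) and Junb (-0.18) fell, and Batf3 (0.32) and the related repressor gene Bach1 (0.25) rose. Of 8 BCL6 corepressors and rivals 3 fell, 0 rose and 5 did not pass, with a median of -0.14: the corepressor gene Bcor (-0.27), Stat3 (-0.19) and Stat5a (-0.15). Prdm1, chosen after its values were seen, did not pass (-0.28, edgeR adjusted p = 0.187). Of 13 tested effector genes that oppose the naive state 1 fell, Bhlhe40 (-0.18), 0 rose and 12 did not pass, with a median of -0.01.

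**Figure D4:**
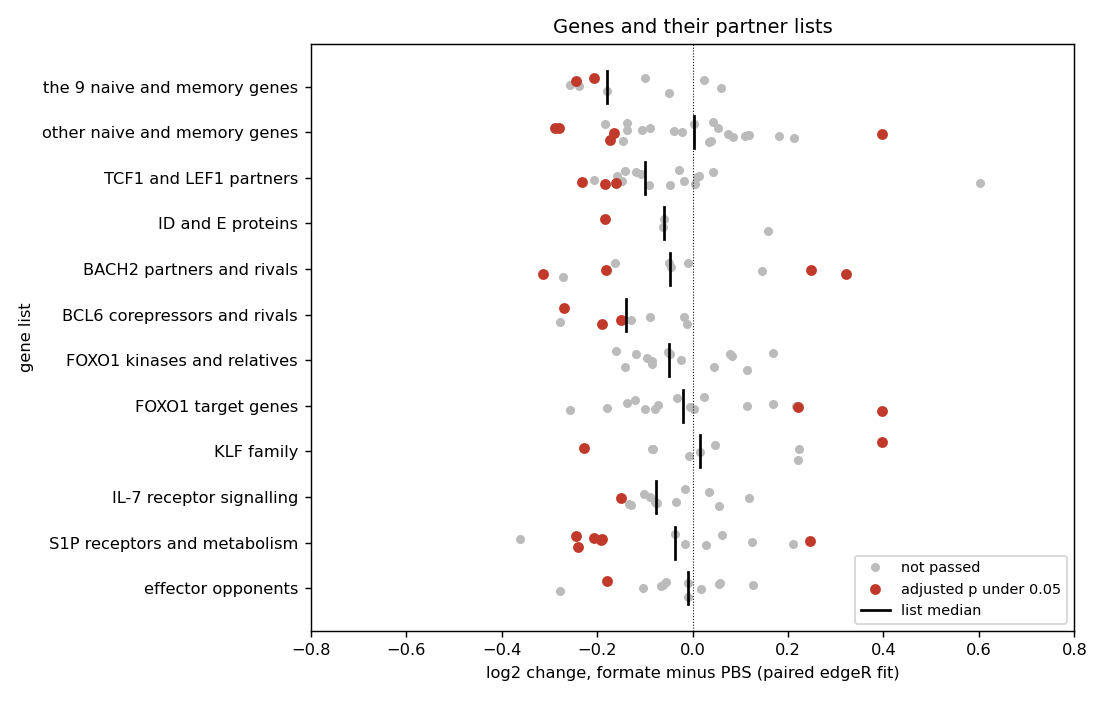
Log2 change with formate in the paired edgeR fit (horizontal axis) of every tested gene of each list, red where the adjusted p was under 0.05, with the list median as a bar; Id1 (1.07) and Cx3cr1 (1.44), neither of which passed, lie beyond the axis. Lef1 and Foxo1 are the 2 red points of the top row, and the S1P list has 6.

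The genes whose log2 CPM ran most like that of each gene over the 8 libraries were Gde1 (Pearson r = 0.985), Ube2v1 and Gypc for Lef1, Ctnna1 (0.976), Rinl and Eef2 for Foxo1, and Itpkc (0.996), Lrch1 and Chd4 for Tcf7. For Il7r they were Mctp2 (0.998), Hip1r and Bad, for S1pr1 Socs3 (0.992), Sdc4 and Rhoq, and for Klf2 Lrch4 (0.948), Jmjd8 and Spsb3. For Bach2 they included Ralgapb (0.984) and Zfp36l1, for Id3 Gnaq (0.993), Zmynd11 and Rdh10, and for Bcl6 Bcr (0.948), Lrrc8b and Phaf1. Among the 9 themselves Il7r and S1pr1 were closest (r = 0.979), then Lef1 and Foxo1 (0.832) and Tcf7 and Id3 (0.817), and Id3 ran opposite to S1pr1 (-0.922). These values are descriptions over 8 libraries that share 4 pairs and 2 runs of codes, and carry no test.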

How the data were processed

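Values are estimated counts per gene, used as the authors deposited them and not normalised. The submitters' processing notes name Trimmomatic, MultiQC, kallisto, GRCm38 and mm10. Their versions, any filters, the strand setting and the transcript set were not given there or elsewhere in the sources used here. Per the labels' protocols the kit was a stranded mRNA kit, read in pairs of 58 bp. Coordinates, transcript lengths and GC content came from GENCODE M21, which held 34581 of the 35072 identifiers, and promoters from RefSeq.

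Counts were rounded to whole numbers. The quasi-likelihood test of edgeR 4.0.16 (robust, R version 4.3.3) was run after filterByExpr on 13299 genes, the 9 included, with TMM scaling. Benjamini-Hochberg adjustment covered all of them, at 0.05. The procedure was tested on simulated data. Alternatives were DESeq2 1.42.0, other scalings and filters, and left-out libraries or pairs. The GC correction took each library's median deviation over 20 bins of GC content as an offset. Intervals are at the 95% level.

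Replicates are numbered in accession order, and no label says that neighbouring title codes belong together. Deviations from the group means correlated at 0.653, 0.369, 0.656 and 0.370 within the pairs of codes 1, 7, 10 and 13. Each was over the bound of 0.1 for accepting a pairing, but so was the best non-neighbour of every pair. For codes 7 and 8 the best non-neighbour was the closer one (0.373), and for codes 13 and 14 it was at 0.330. The bound thus cannot tell these pairs from non-neighbours, and the pairing remains an assumption. Libraries of 1 group differed by more than sampling noise (smallest chi-square per degree of freedom 20.3).

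The 9 genes, the lists and the tests were chosen with earlier results of these data known, so no test was made over a list. Of each list the genes named are those that passed in either fit, up to 4 by smallest paired p, or else the 1 with the smallest. Genes most like each of the 9 are the 3 with the highest Pearson r of log2 CPM (prior count 2), at 5 CPM or more on average and with an established symbol; 1 gene that this rule names is not reported here. Of the marker lists the rule names Thy1 (-0.13), Itgam (0.87) and Pdgfrb (0.24), which did not pass, Ms4a1 (0.62) and Il1rl1 (0.38), which rose, and Icos (-0.16), which fell, as paired log2 changes.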

Additional observations from a re-analysis of the deposited data

Results flagged for a closer look

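Bach2 in PBS library 3 (code 1) stood far above the other 3 PBS libraries, with a gap of 0.878 of the group's range, and formate library 3 (code 2) stood as far above its group (0.843). Lef1 in PBS library 1 (code 10) stood above the other 3 PBS libraries (0.838), within a range of 123 to 130 CPM, and the paired change of Lef1 without that pair was -0.26. Summed B cell markers were high in PBS library 1 (0.894) and in formate library 1 (0.881), the libraries of codes 10 and 11. These are 5 of 30 groups of 4 libraries that were looked at, and chance alone is expected to single out about 1 in 20 groups.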

How the results depend on the processing

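The count of these genes that passed was 0 unpaired. With the replicate block it was 2, with the block and the GC correction 2, and with the block and 1 pair left out it lay between 0 and 2, all of them lower with formate; it was 0 with DESeq2, the 3 other scalings, the 2 other filters, the run of codes as a covariate, any 1 library left out, and within either run. Over all genes the count was 1 unpaired, 1711 with the replicate block, 1363 with the block and GC correction, 19 with DESeq2, 0 within codes 1 to 8 and 0 within codes 10 to 14, and between 0 and 1371 when a library was left out unpaired or a pair was left out of the block; within the block it was 337, 722, 1371 and 502 without the pairs of codes 1, 7, 10 and 13. The direction of Lef1, Foxo1, Tcf7, Klf2 and Bcl6 was negative in each of 23 alternatives, but its size varied: with 1 library or pair left out it ran from -0.28 to -0.21 for Lef1, -0.24 to -0.15 for Foxo1, -0.18 to -0.02 for Tcf7, -0.37 to -0.13 for Klf2 and -0.48 to -0.06 for Bcl6. Likewise the change of Bach2 ran from -0.16 to 0.31, of Id3 from -0.27 to 0.14, of Il7r from -0.41 to 0.51 and of S1pr1 from -0.57 to 0.23. For these genes both ends came from unpaired fits with 1 library left out. With a whole pair left out of the block the ranges were narrower. They were 0.004 to 0.11 for Bach2, -0.08 to 0.02 for Id3, -0.01 to 0.12 for Il7r and -0.23 to -0.12 for S1pr1. Il7r was at -0.084 with the replicate block and GC correction, at -0.046 within codes 1 to 8, and in the block at -0.0063 without codes 7 and 8 and -0.011 without codes 13 and 14. Id3 was at 0.029 within codes 10 to 14 and at 0.019 in the block without codes 7 and 8. With 1 library left out the difference in summed CPM ran from -1.22 to 5.58 for B cell, from -0.35 to 0.48 for myeloid and dendritic, and from -0.34 to 1.96 for endothelial and stromal markers. The cause of these changes was not tested. At 90 to 278 counts per library, counting noise adds to the spread of Klf2 and Bcl6.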
